A study of Mus musculus with 6 samples.

Results

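The genes described here are 10 members of the interleukin-6 (IL-6) signalling pathway in mouse liver, selected by gene symbol from the 55385 genes of the deposited table, in which each has 1 entry. They are the receptors Il6ra, Il6st, Osmr, Lifr and Lepr, the transcription factor Stat3, the feedback inhibitors Socs3, Socs2 and Cish, and the kinase gene Pim1. Messenger RNA was sequenced from 6 livers of C57BL/6 mice aged 6 weeks, 2 per group. Optn-/- mice (replicates 4 and 5) and wild-type mice (replicates 1 and 4) had been given acetaminophen at 500 mg/kg into the abdominal cavity, and wild-type control mice (replicates 3 and 6) had been given 200 µL of phosphate-buffered saline, 6 h before. No Optn-/- mice without acetaminophen were analysed here, and the labels do not say how the Optn allele was made. They say neither whether the mice were littermates nor what a replicate number stands for, so p-values measure only the spread between these samples.

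IL-6 binds its receptor, encoded by Il6ra, and the pair recruits the shared signalling chain gp130, encoded by Il6st. Oncostatin M and leukaemia inhibitory factor (LIF) use gp130 together with the receptors encoded by Osmr and Lifr, while the leptin receptor Lepr is a related receptor that signals as a pair of its own chains. The receptors activate Janus kinases, which phosphorylate STAT3, and in hepatocytes STAT3 is known to drive acute phase genes and its own inhibitor Socs3. Socs2 and Cish are best known as inhibitors induced by STAT5 downstream of growth hormone. An overdose of acetaminophen is turned into a reactive product in hepatocytes and injures the liver, and Optn encodes optineurin, an autophagy receptor.

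Promoter sequences are shown for the 2 members whose windows hold the core STAT motif, because one of these genes was higher and the other lower after acetaminophen, and for Osmr, which holds an AP-1 motif. Each window covers 250 bases before and 50 bases from the RefSeq start site onward (RefSeq, GRCm38.p6), written 5′ to 3′ on the gene's own strand, with motif matches in capitals. The Socs3 window is chr11:117969317-117969616 (minus strand), the Cish window is chr9:107296409-107296708 (plus strand) and the Osmr window is chr15:6874264-6874563 (minus strand). Each of these windows lies inside the span that the deposited table gives its gene. The RefSeq start sites used here therefore lie downstream of the outermost starts in that table, and motif positions hold only for the RefSeq starts.
Socs3: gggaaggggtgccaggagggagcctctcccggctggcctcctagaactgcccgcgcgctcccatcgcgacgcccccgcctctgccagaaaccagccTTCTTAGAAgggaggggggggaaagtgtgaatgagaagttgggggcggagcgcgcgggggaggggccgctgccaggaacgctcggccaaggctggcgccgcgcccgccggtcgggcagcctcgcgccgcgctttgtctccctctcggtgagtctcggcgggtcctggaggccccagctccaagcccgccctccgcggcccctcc
Cish: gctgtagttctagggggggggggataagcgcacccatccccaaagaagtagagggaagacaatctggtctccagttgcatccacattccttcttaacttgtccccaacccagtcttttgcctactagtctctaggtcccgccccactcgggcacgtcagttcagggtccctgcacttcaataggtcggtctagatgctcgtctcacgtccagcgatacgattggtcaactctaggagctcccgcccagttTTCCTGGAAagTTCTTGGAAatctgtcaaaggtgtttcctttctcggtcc
Osmr: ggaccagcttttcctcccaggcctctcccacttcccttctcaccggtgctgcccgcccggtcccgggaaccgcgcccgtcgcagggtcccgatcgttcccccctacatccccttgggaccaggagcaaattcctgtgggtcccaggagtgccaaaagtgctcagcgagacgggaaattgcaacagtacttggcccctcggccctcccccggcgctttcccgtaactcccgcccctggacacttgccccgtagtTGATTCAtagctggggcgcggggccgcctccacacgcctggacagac
The motif TTCNNNGAA, which reads the same on both strands, matched once in Socs3, from base 154 before the start site, as TTCTTAGAA. It matched at 2 places in Cish, from positions 1 and 12 counted with the start site as 1, as TTCCTGGAA and TTCTTGGAA, which do not overlap. RefSeq windows were found for 9 of the 10 members, and in the other 7 of these 9 the motif was not in the window. Over the whole promoter table, 9.55% of 27025 genes had a window with this motif. The AP-1 motif TGANTCA, also the same on both strands, was found in Osmr alone among the 9, from position 4, and in 8.97% of all genes. The matches are descriptions of letters, and no binding was measured here.

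Total counts were between 59.1 and 77.3 M (1e6 counts) per library. Optn gave an FPKM (fragments per kilobase of gene and per 1e6 counts) of 0.32 and 0.46 in the treated Optn-/- livers, 9.17 and 9.19 in the treated wild-type livers and 20.95 and 18.73 in the controls, so no library went against its genotype label. The hepatocyte markers, among them Alb and Ttr, were high in every library and the 6 markers summed to between 93230 and 133000 CPM (counts per 1e6 total counts). Muscle and gut transcripts divided the libraries along lines other than the 3 groups. The 12 skeletal muscle markers summed to 68.15 and 79.37 CPM in the treated wild-type livers and 103.6 CPM in control replicate 3, but to at most 1.01 CPM in the treated Optn-/- livers and control replicate 6. Of the 12 intestinal markers, none was at 0 in the treated Optn-/- livers and control replicate 6, and 6 or 7 were at 0 in each of the other 3 libraries. Their sums differed less than those of the muscle markers. They were 79.05 and 90.42 CPM in the treated Optn-/- livers and 82.16 CPM in control replicate 6. The treated wild-type livers had 41.09 and 38.11 CPM and control replicate 3 had 61.04 CPM. Each treated group therefore lay within 1 set of libraries, and from the 4 treated livers alone the set and the genotype cannot be told apart. A model with the set as a further factor takes the difference between the sets from 1 control in each. The 8 neuron markers summed to 119.7 CPM in treated wild-type replicate 4 and to between 6.35 and 13.55 CPM elsewhere.

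**Figure D1:**
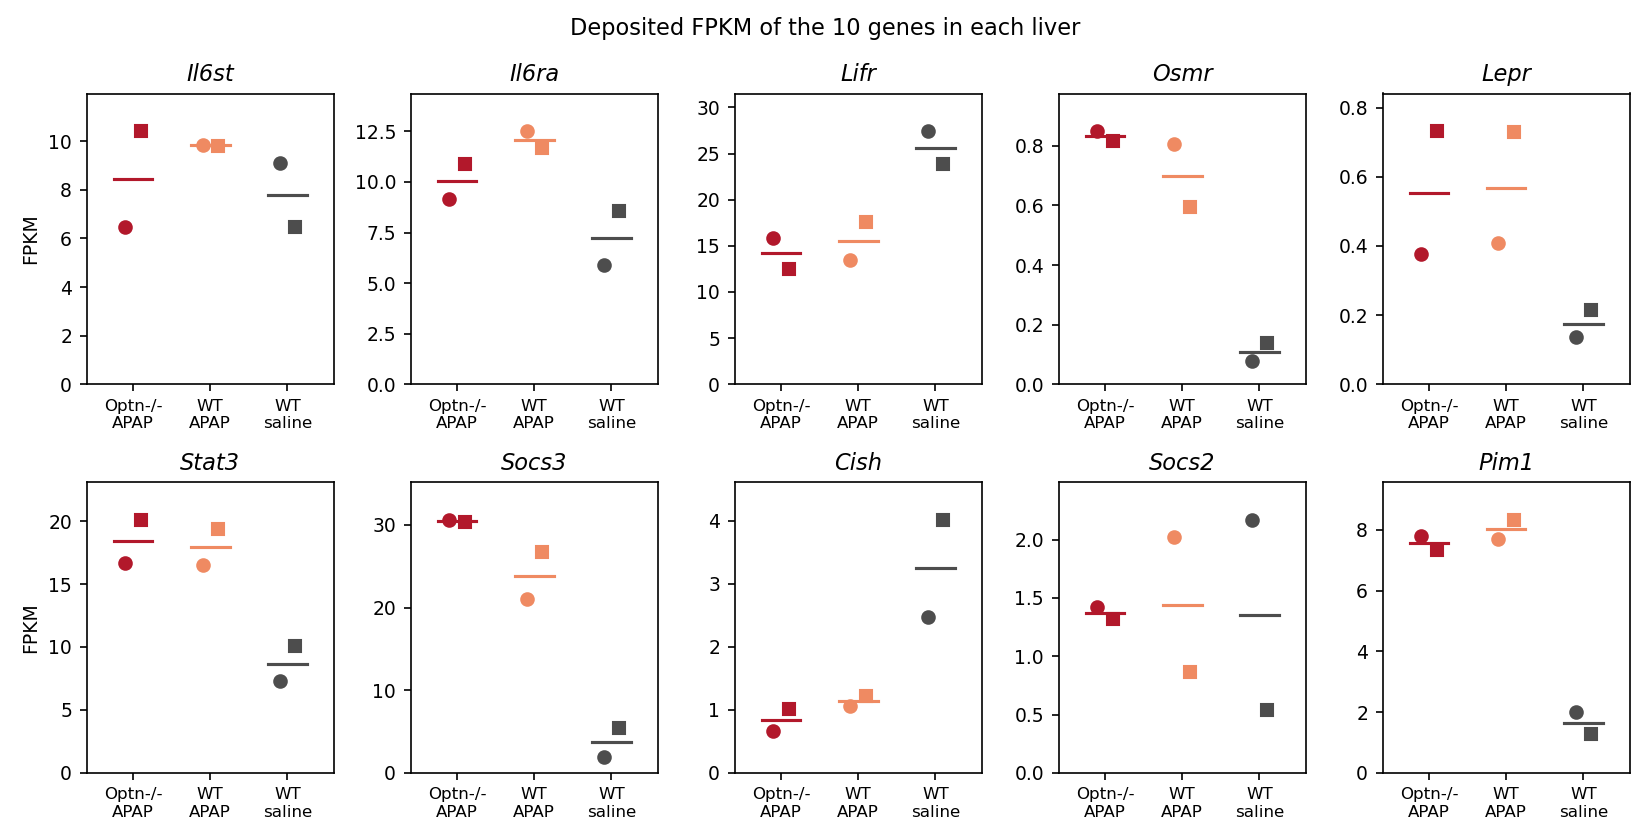
Deposited FPKM of the 10 genes, 1 panel per gene, with 2 livers per group (circle for the lower and square for the higher replicate number; horizontal line, group mean). Il6ra, Osmr, Lepr, Stat3, Socs3 and Pim1 sat higher in all 4 treated livers than in both controls, Lifr and Cish sat lower, and Il6st and Socs2 overlapped between groups. The share of all genes that separate in this way was not counted.

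Within 6 h of acetaminophen in wild-type mice, the transcripts of Osmr, Stat3, Socs3, Pim1 and Il6ra rose and that of Cish fell, while Il6st, Lifr and Socs2 did not pass the test. Of the 10 genes, 9 passed the filter on low values (a mean FPKM of at least 0.5 over the 6 libraries), and of these 5 rose and 1 fell (edgeR adjusted p under 0.05), against 8.36% of all 11677 tested genes that rose and 5.92% that fell, 14.3% in all. The median log2 fold change was 0.96 over the 9 members and 0.03 over all tested genes. Scaling by total count in place of TMM moved the median over all genes to -0.19 and gave 721 rises and 1470 falls in place of 976 rises and 691 falls. The fold changes given here are relative to TMM scaling, whereas the FPKM values are relative to total counts. In these bulk samples, fewer cells of a type and less RNA per cell cannot be told apart.

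Among the receptors, Osmr, which gives the oncostatin M receptor its specific chain, changed most in size. Osmr (ENSMUSG00000022146, GRCm38, as are all gene positions given here, chromosome 15, 6813577 to 6874969, minus strand) had an FPKM of 0.807 and 0.593 in treated wild-type livers, against 0.0793 and 0.137 in controls, with 63 and 138 counts behind the control values. Both treated livers lay far above both controls, although the gene remained among the least abundant members. Its mean FPKM over the 6 libraries was 0.547, so it passed the filter only through the treated livers. The group means were 0.833 in treated Optn-/- livers, 0.700 in treated wild-type livers and 0.108 in controls. The log2 fold change was 2.90 ± 0.33 (SE, edgeR adjusted p = 0.00666). It passed in all 15 alternatives that could be run, although on the log2(FPKM + 1) scale, which understates changes of low genes, the difference was 0.61.

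Il6ra, the IL-6 binding chain (ENSMUSG00000027947, chromosome 3, 89864059 to 89913196, minus strand), had an FPKM of 12.5 and 11.7 in treated wild-type livers, against 5.92 and 8.58 in controls. The groups did not overlap, and the log2 fold change was 0.96 ± 0.20 (edgeR adjusted p = 0.0306). The call was close to the threshold: it was lost in 10 of 16 alternatives, among them scaling by total count (0.73, adjusted p = 0.0564) and the fits without control replicate 3 (0.73, adjusted p = 0.109), without treated wild-type replicate 1 (adjusted p = 0.113) or 4 (0.0716), and without Optn-/- replicate 4 (0.0571) or 5 (0.0577). The predicted gene Gm42809 overlaps Il6ra on the other strand, with 112 and 66 counts in treated wild-type livers and 6 and 4 in controls, against 3314 to 7827 counts for Il6ra over all libraries.

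Il6st, the shared gp130 chain (ENSMUSG00000021756, chromosome 13, 112464070 to 112510086, plus strand), had an FPKM of 9.86 and 9.79 in treated wild-type livers, against 9.12 and 6.47 in controls. The treated livers lay just above the higher control. The log2 fold change of 0.54 ± 0.26 had a 95% interval of -0.10 to 1.19 and did not pass (edgeR adjusted p = 0.218).

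Lifr, the LIF receptor chain and the most abundant of the 5 receptors by FPKM in the controls (ENSMUSG00000054263, chromosome 15, 7090614 to 7197489, plus strand), had an FPKM of 13.5 and 17.6 in treated wild-type livers, against 27.4 and 23.9 in controls. Both treated livers were below both controls. The log2 fold change was -0.52 ± 0.19 and did not pass (edgeR adjusted p = 0.131), but it did pass with limma on log2(FPKM + 1) (-0.69, adjusted p = 0.0499), a scale that rests on total counts.

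Lepr, the leptin receptor (ENSMUSG00000057722, chromosome 4, 101717404 to 101813667, plus strand), had a mean FPKM of 0.43 and lay below the filter. Its FPKM was 0.407 and 0.729 in treated wild-type livers, against 0.136 and 0.214 in controls, from 208 and 398 against 63 and 125 counts. Both treated livers were higher than both controls. In a fit without the filter, chosen after seeing the data, its log2 fold change was 1.85 ± 0.45 (edgeR adjusted p = 0.0369), and the call was lost in 11 of 14 alternatives, including each fit without 1 library other than the one without treated wild-type replicate 1 (adjusted p = 0.045 there, and at most 0.266 in the others).

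The receptors were also set against each other within each liver. Lifr made up 36.4% and 43.5% of the summed FPKM of the 5 receptors in treated wild-type livers, against 64.2% and 60.8% in controls. The sum itself was 37.1 and 40.4 in treated wild-type livers, against 42.6 and 39.3 in controls, and so overlapped between the groups. Osmr was at 5.97% and 3.38% of the FPKM of Lifr in treated wild-type livers, against 0.29% and 0.58% in controls. The ratio of Il6ra to Il6st was 1.27 and 1.20 in treated wild-type livers, against 0.65 and 1.33 in controls, so these overlapped. These shares compare transcripts per length and say nothing of protein at the cell surface.

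**Figure D2:**
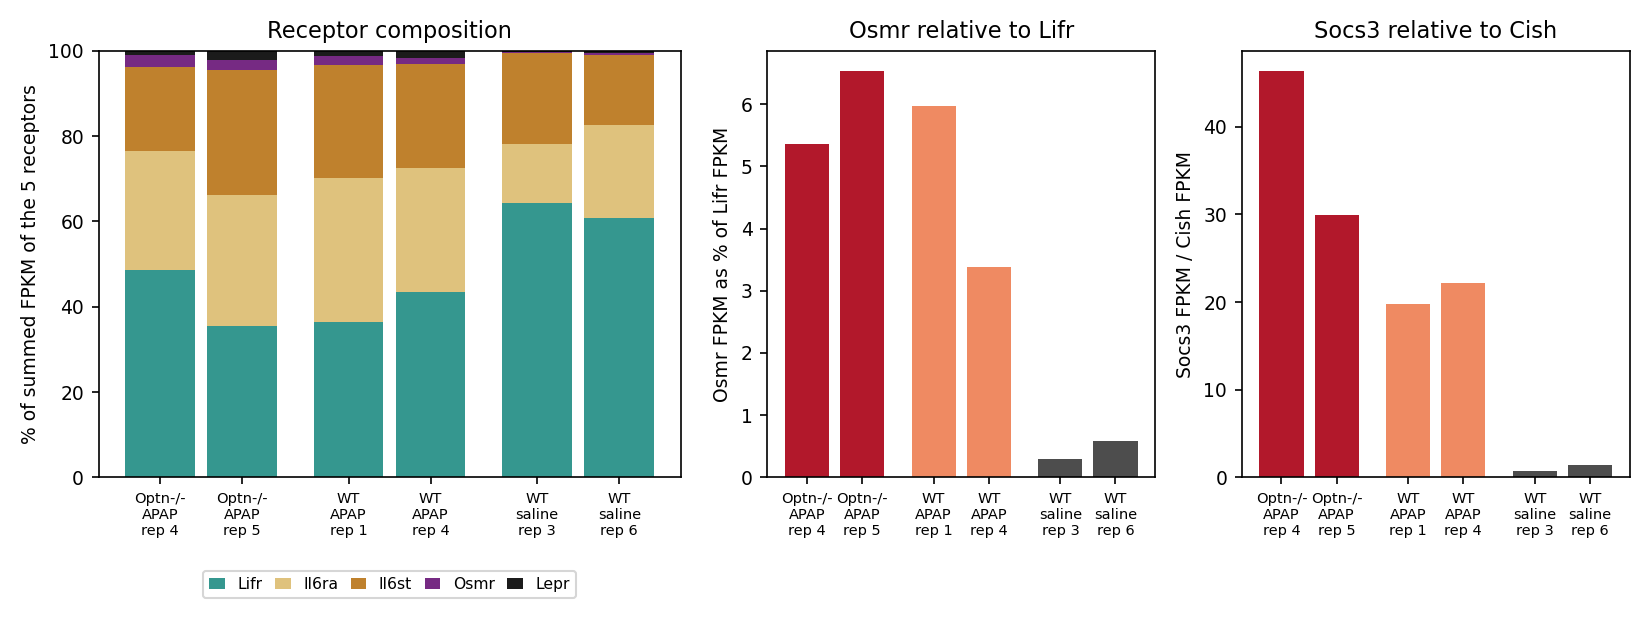
Composition of the 5 receptors as a percentage of their summed FPKM (left), Osmr FPKM as a percentage of Lifr FPKM (middle) and the ratio of Socs3 to Cish FPKM (right), 1 bar per liver. Osmr stood at 3.38% to 6.53% of Lifr in the 4 treated livers and at 0.29% and 0.58% in the controls, and Socs3 stood at 19.81 to 46.36 times Cish in the treated livers and at 0.78 and 1.36 times in the controls.

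Stat3, the factor on which these receptors converge (ENSMUSG00000004040, chromosome 11, 100885098 to 100939540, minus strand), had an FPKM of 16.5 and 19.4 in treated wild-type livers, against 7.26 and 10.1 in controls. Both treated livers were above both controls, and the log2 fold change was 1.25 ± 0.19 (edgeR adjusted p = 0.0139). The call was lost without control replicate 3 (adjusted p = 0.0625) and without treated wild-type replicate 4 (0.0502). Stat5a lies on the other strand and overlaps the gene, with 531 to 649 counts per library against 4483 to 14233 for Stat3.

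Socs3, which binds gp130 and blocks the Janus kinases, showed one of the largest differences among the members. Socs3 (ENSMUSG00000053113, chromosome 11, 117966079 to 117970047, minus strand) had an FPKM of 21 and 26.7 in treated wild-type livers, against 1.92 and 5.44 in controls. The treated livers were well above both controls, which themselves differed. The log2 fold change was 2.90 ± 0.47 (edgeR adjusted p = 0.0157) and passed in all 16 alternatives, at 3.80 without control replicate 6 and 2.35 without control replicate 3. The ratio of Socs3 to Stat3 FPKM was 1.28 and 1.38 in treated wild-type livers, against 0.27 and 0.54 in controls.

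Cish moved the other way. Cish (ENSMUSG00000032578, chromosome 9, 107296026 to 107302784, plus strand) had an FPKM of 1.06 and 1.21 in treated wild-type livers, against 2.47 and 4.01 in controls. Both treated livers were below both controls, and the log2 fold change was -1.3 ± 0.30 (edgeR adjusted p = 0.0405). This call was lost in each of the 6 fits without 1 library (adjusted p between 0.0528 and 0.153) and when the library set was added to the model (-0.92, adjusted p = 0.133). The predicted gene Gm17040 overlaps Cish on the other strand, with 4 and 8 counts in treated wild-type livers and 62 and 25 in controls, and reads of such partners cannot be told apart without strand. The ratio of Socs3 to Cish was 19.81 and 22.16 in treated wild-type livers, against 0.78 and 1.36 in controls.

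Socs2, the third inhibitor (ENSMUSG00000020027, chromosome 10, 95385362 to 95417180, minus strand), had an FPKM of 2.02 and 0.865 in treated wild-type livers, against 2.17 and 0.537 in controls. The livers within each group differed more than the groups did. The log2 fold change of 0.31 ± 0.69 had a 95% interval of -1.39 to 2.01 (edgeR adjusted p = 0.8), so neither a rise nor a fall of several-fold could be told from no change.

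Pim1, a serine/threonine kinase gene induced by STAT signals (ENSMUSG00000024014, chromosome 17, 29490753 to 29496112, plus strand), had an FPKM of 7.71 and 8.33 in treated wild-type livers, against 1.99 and 1.28 in controls. The replicates were close to each other and the groups far apart. Its log2 fold change of 2.50 ± 0.24 had the smallest p of the 9 tested members (edgeR adjusted p = 0.00428) and passed in all 16 alternatives. Its overlapping partner on the other strand, Gm26885, had 53 and 79 counts in treated wild-type livers and 21 and 19 in controls.

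Neutrophil, monocyte and bile duct markers were higher after the treatment, whereas B cell markers overlapped between the groups. The 9 neutrophil markers summed to 143.1 and 67.97 CPM in treated wild-type livers, against 2.86 and 7.80 CPM in controls, in which 3 and 1 of the markers were at 0. The 7 monocyte markers summed to 126.6 and 73.8 CPM in treated wild-type livers, against 5.68 and 11.92 CPM in controls, with 1 marker at 0 in control replicate 3. B cell markers summed to 2.93 and 4.29 CPM in treated wild-type livers, against 2.15 and 3.56 CPM in controls. For T and NK cell markers the sums were 4.41 and 2.84 CPM, against 1.81 and 2.07 CPM. The 9 Kupffer cell markers summed to 387.7 and 331.1 CPM in treated wild-type livers, against 156.7 and 421.6 CPM in controls, and the 7 sinusoidal endothelial markers to 108.5 and 107.8 CPM, against 101.7 and 171.8 CPM. The 5 bile duct markers summed to 94.48 and 59.17 CPM in treated wild-type livers, against 31.5 and 40.02 CPM in controls. For the 7 stellate cell markers the sums were 184.7 and 135.3 CPM, against 107.1 and 135.1 CPM, so the closest values were nearly equal. The 6 hepatocyte markers summed to 133000 and 129200 CPM in treated wild-type livers, against 115600 and 118400 CPM in controls. The part of these cells in the changes of the receptor and feedback genes was not tested.

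Within the set of libraries with muscle transcripts, the log2 ratio of treated wild type to control replicate 3 on TMM-scaled CPM was 3.33 for Osmr, 3.82 for Socs3, 2.20 for Pim1, 1.5 for Stat3, 1.23 for Il6ra, -0.62 for Lifr and -0.93 for Cish. Within the other set, in which every intestinal marker was counted, the ratio of treated Optn-/- to control replicate 6 was 2.80 for Osmr, 2.68 for Socs3, 2.75 for Pim1, 1.05 for Stat3, 0.42 for Il6ra, -0.55 for Lifr and -2.07 for Cish. Each of these 7 genes had the same sign in both sets, with a single control in each. So did Lepr (2.24 and 1.56) and Il6st (0.3 and 0.57). The share of all tested genes with the same sign in both sets was not counted. For Socs2 the signs differed, at -0.38 and 1.54, and control replicate 6 was itself 2.04 lower than control replicate 3 on the log2 scale (-2.04).

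**Figure D3:**
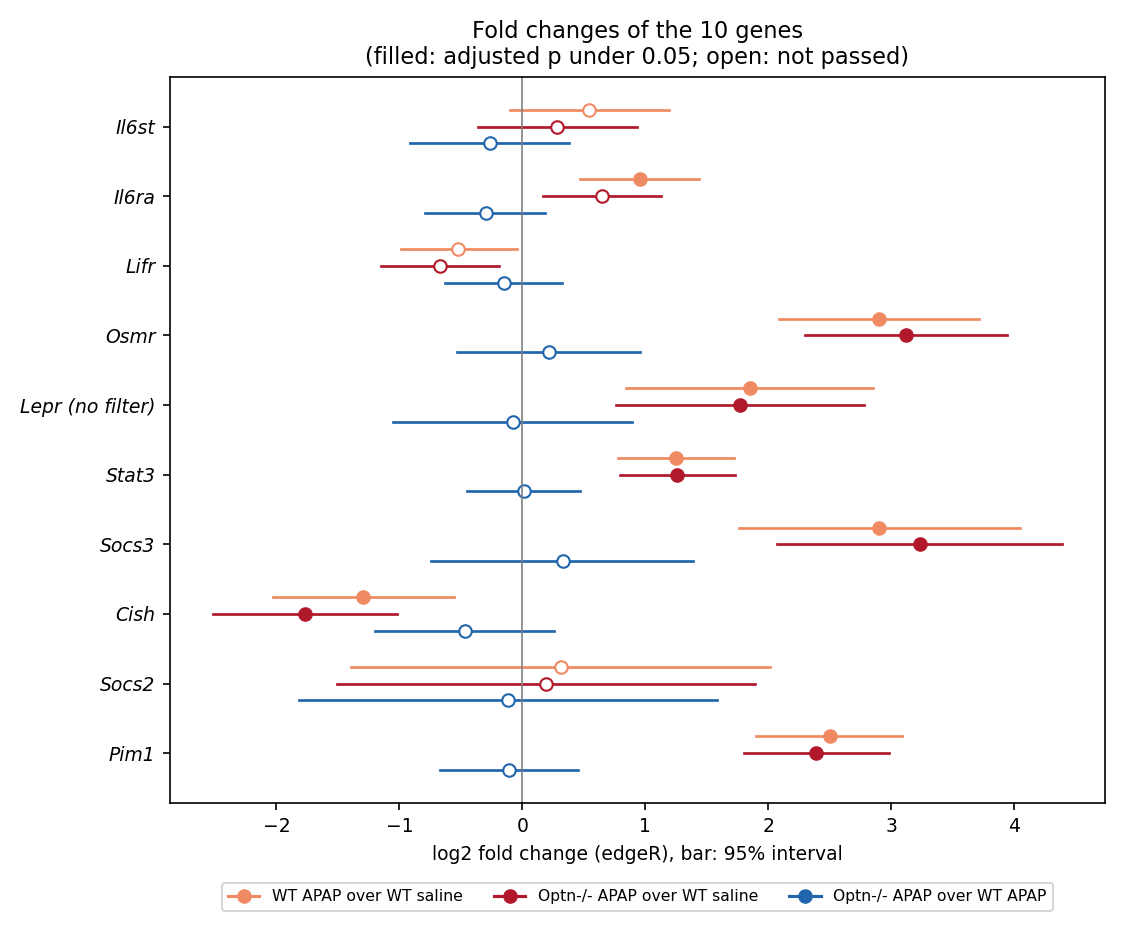
Log2 fold changes of the 10 genes from edgeR with 95% intervals, for 3 comparisons that share libraries (filled points, adjusted p under 0.05; Lepr from the fit without a filter). Intervals of Optn-/- over wild type after acetaminophen, drawn in blue, all include 0, and those of both treated groups over saline lie to the right of 0 for Osmr, Lepr, Stat3, Socs3, Pim1 and Il6ra.

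Treated Optn-/- livers were next compared with treated wild-type livers. Without saline Optn-/- livers, this compares levels after acetaminophen. It cannot tell an altered response from a difference present before treatment. The groups also lay in different sets of libraries, so genotype and set cannot be told apart here. None of the 9 tested members passed, in either direction, and 0 had an unadjusted p under 0.05; over all genes 12 of 11677 (0.103%) passed in edgeR, 6 higher (0.0514%) and 6 lower (0.0514%). DESeq2, which called 291 genes, and limma, which called 27, also called none of the members. The monocyte markers summed to 236.4 and 197.3 CPM in treated Optn-/- livers, against 126.6 and 73.8 CPM in treated wild-type livers. Kupffer cell sums were also higher, at 634.3 and 415.5 CPM against 387.7 and 331.1 CPM. Both Optn-/- livers were likewise higher for sinusoidal endothelial, stellate, bile duct, neutrophil and B cell markers. T and NK cell sums overlapped. The hepatocyte sums were lower, at 93230 and 123200 CPM against 133000 and 129200 CPM. The part of these cells in the values of the members was not tested. Stat3 had an FPKM of 16.7 and 20.1 in treated Optn-/- livers, against 16.5 and 19.4 in treated wild-type livers, and its log2 fold change of 0.01 ± 0.19 had an interval of -0.45 to 0.47. Socs3 had an FPKM of 30.6 and 30.3 in treated Optn-/- livers, against 21 and 26.7 in treated wild-type livers, where both Optn-/- values were higher, with a log2 fold change of 0.33 ± 0.43 and an interval of -0.74 to 1.39. Pim1 had an FPKM of 7.81 and 7.33 in treated Optn-/- livers, against 7.71 and 8.33 in treated wild-type livers, with a log2 fold change of -0.11 and an interval of -0.67 to 0.45. Cish had an FPKM of 0.661 and 1.01 in treated Optn-/- livers, against 1.06 and 1.21 in treated wild-type livers, where both Optn-/- values were lower, with a log2 fold change of -0.47 ± 0.30 and an interval of -1.20 to 0.26.

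None of the receptors passed the test either. Il6ra had an FPKM of 9.18 and 10.9 in treated Optn-/- livers, against 12.5 and 11.7 in treated wild-type livers, with both Optn-/- values lower and a log2 fold change of -0.30 (interval -0.79 to 0.18). Osmr had an FPKM of 0.848 and 0.817 in treated Optn-/- livers, against 0.807 and 0.593 in treated wild-type livers, with a log2 fold change of 0.22 (interval -0.53 to 0.96). For the other receptors and Socs2 the values of the groups overlapped. Il6st had an FPKM of 6.45 and 10.4 in treated Optn-/- livers, against 9.86 and 9.79 in treated wild-type livers (log2 fold change interval -0.91 to 0.38). Lifr had an FPKM of 15.9 and 12.5 in treated Optn-/- livers, against 13.5 and 17.6 in treated wild-type livers (interval -0.63 to 0.32). Lepr had an FPKM of 0.376 and 0.731 in treated Optn-/- livers, against 0.407 and 0.729 in treated wild-type livers (interval -1.05 to 0.89 without the filter). Socs2 had an FPKM of 1.42 and 1.32 in treated Optn-/- livers, against 2.02 and 0.865 in treated wild-type livers, and its interval of -1.82 to 1.58 was the widest.

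Treated Optn-/- livers differed from saline wild-type livers in 2 factors at once, and this comparison shares its controls with the first. Osmr (3.12 ± 0.33, edgeR adjusted p = 0.00387), Pim1 (2.39 ± 0.24, 0.00346), Socs3 (3.23 ± 0.47, 0.00886) and Stat3 (1.26 ± 0.19, 0.0098) rose, and Cish fell (-1.77 ± 0.30, 0.0141). These are 4 rises and 1 fall among the 9 tested members, against 12.2% and 8.05% of all genes, or 20.3% in either direction. Scaling by total count gave 1134 rises and 1756 falls over all genes in place of 1426 and 940, with a median of -0.19. Il6ra (0.65 ± 0.20, edgeR adjusted p = 0.0682) and Lifr (-0.67 ± 0.19, 0.0609) did not pass, and Lepr passed without the filter (1.77 ± 0.45, 0.0363). The Lepr call was lost in 9 of 14 alternatives, among them the fits without either Optn-/- library or either control (adjusted p up to 0.362). Lifr passed in 6 of 16 alternatives, among them DESeq2 (adjusted p = 0.0102) and scaling by total count (0.028), and Il6ra passed in DESeq2 (0.0162) and without control replicate 6 (0.0457). Without Optn-/- replicate 5 the calls of Stat3 (adjusted p = 0.0615) and Socs3 (0.0535) were lost, and without Optn-/- replicate 4 that of Cish (0.0642). Without control replicate 6 the log2 fold change of Socs3 was 4.13, and it was 2.68 when the library set was added to the model or control replicate 3 was left out. The neutrophil markers summed to 147.2 and 188.3 CPM and the monocyte markers to 236.4 and 197.3 CPM in treated Optn-/- livers, against at most 7.80 and 11.92 CPM in controls. Stellate, bile duct, T and NK cell and B cell sums were also higher in both Optn-/- livers than in both controls. Kupffer cell, sinusoidal endothelial and hepatocyte sums overlapped. The part of these cells in the changes was not tested.

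Of 11 ligand genes and ligand subunits of the family, 8 were below the filter, and Clcf1, Ebi3 and Ctf1 were tested. Clcf1 and Ebi3 were below an FPKM of 0.5 in both controls and passed the filter only through treated livers. Il6 had 29 and 24 counts in treated Optn-/- livers, 31 and 0 in treated wild-type livers, and 0 in both controls. Osm, which encodes oncostatin M, had 16 and 76 counts in treated Optn-/- livers, 30 and 10 in treated wild-type livers, and 0 in both controls. Lif had 27 and 19 counts in treated Optn-/- livers, 16 and 23 in treated wild-type livers, and 0 and 12 in controls. Where none was counted, up to 3 counts remain possible from counting error alone, which is 0.0507 CPM at the lowest depth. Lep, the leptin gene, had a count of 0 in every library. Of the 3 ligand genes tested in the first comparison, Ebi3, a subunit of interleukin 27, rose (2.37 ± 0.58, edgeR adjusted p = 0.0471) and had the highest mean FPKM of the list, and this call was lost in 10 of 15 alternatives. Clcf1, a cardiotrophin-like cytokine gene, had an FPKM of 1.16 and 1.39 in treated Optn-/- livers, 0.635 and 0.361 in treated wild-type livers, and 0.168 and 0.268 in controls, and passed for Optn-/- against controls (2.71 ± 0.44, edgeR adjusted p = 0.012). None of the other receptors and soluble partners passed, with 2 of 5 tested, and Il11ra1, the most abundant, had an FPKM between 4.01 and 5.32.

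The counts of the following lists stand against the 8.36% of all tested genes that rose and the 5.92% that fell in this comparison. Between the receptors and STAT3, 2 of 4 Janus kinases rose after acetaminophen in wild type, Jak2 (1.3 ± 0.22, edgeR adjusted p = 0.0184) and Jak1 (0.59 ± 0.14, 0.044). Jak1, the kinase that gp130 mainly relies on, was the most abundant of the 4, with an FPKM of 12.7 and 13.9 in treated wild-type livers, against 9.49 and 11 in controls, and its call was lost in 13 of 16 alternatives. That of Jak2 was lost in 4 of 15, among them the fits without treated wild-type replicate 1 and without either control, and without 1 library 0 or 1 of the 4 kinases passed. Among the STAT genes other than Stat3, Stat6, which acts downstream of interleukin 4, fell (-0.95 ± 0.17, edgeR adjusted p = 0.021), and its call was lost in 4 of the 6 fits without 1 library. Of 13 tested SOCS, PIAS and phosphatase inhibitors, 3 rose, Ptpn1 (1.3 ± 0.20, edgeR adjusted p = 0.0146), Ptpn2 (1.77 ± 0.31, 0.0188) and Socs7 (0.63 ± 0.16, 0.0482), and 0 fell. Ptpn1 and Ptpn2 encode phosphatases that act on Janus kinases and STATs. Ptpn1 passed in 15 of 16 alternatives and Ptpn2 in 12, whereas Socs7 passed in 1 of 15. Without 1 library, between 0 (without control replicate 3) and 2 of the 13 passed. Socs1, the close relative of Socs3, had 53 counts or fewer in every library and was not tested.

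Of 21 regulators that STAT3 is known to induce in various cells, 13 rose and 1 fell in treated wild type. The median log2 fold change was 1.49, against 0.03 over all tested genes. Fos (FPKM of 0.13 and 0.104 in controls) and Batf (0.276 and 0.127, named after its value was seen) are among the 13. Both passed the filter on low values only through treated livers, so the count and the median are partly tied to that filter. Without 1 library, between 7 (without control replicate 3) and 12 of the 21 passed; without treated wild-type replicate 1 they were 8. The AP-1 genes Fos (9.46 ± 0.62) and Junb (4.65 ± 0.35), the transcription factor Cebpd (2.07 ± 0.17) and the kinase gene Pim3 (1.94 ± 0.17) had the smallest p (edgeR adjusted p between 0.00179 and 0.00331), and these genes also respond to other signals. Pim3 was the most abundant of the list, with an FPKM of 91.8 and 93.6 in treated wild-type livers, against 23.8 and 32.1 in controls. The gene that fell was Ccnd1, cyclin D1 (-1.05 ± 0.23, edgeR adjusted p = 0.0368, named after its value was seen). Of 18 tested acute phase genes, 9 rose and 0 fell, with a median of 1.42. Among the 9 were Steap4 (3.49 ± 0.17), Fgg (1.61 ± 0.15) and Lcn2 (5.32 ± 0.71). Il1rn (FPKM of 0.189 and 0.17 in controls, named after its value was seen) and Timp1 are also among the 9. They too passed the filter only through treated livers. The number that passed was 5 without control replicate 3 and 14 without either Optn-/- library. Timp1, a protease inhibitor gene of this list, had 85 and 50 counts in treated wild-type livers and 0 in both controls. With 3 counts per control library as the floor, its mean CPM was at least 22.1-fold higher in treated wild-type livers. Hpx, haemopexin, was the most abundant of the list and did not pass (0.72 ± 0.31, edgeR adjusted p = 0.172). Of the 7 tested genes of the growth hormone and STAT5 axis, Igfbp3 rose (1.27 ± 0.27, edgeR adjusted p = 0.0334) and Igfals, which encodes the acid-labile subunit of the circulating insulin-like growth factor complex, fell (-1.36 ± 0.30, 0.0366). Without 1 library, Igfbp3 passed in 1 of 6 fits (without treated wild-type replicate 4) and Igfals in 2 of 6 (without either Optn-/- library), and over all alternatives they were lost in 7 and 5 of 16. Igf1, the most abundant of these, had an FPKM of 38.6 and 31.6 in treated wild-type livers, against 50.4 and 37.5 in controls, and Ghr, the growth hormone receptor, had 28 and 25.2 against 33.9 and 36.2 and did not pass (edgeR adjusted p = 0.389). In Optn-/- against treated wild type, 0 genes of any of these 8 lists passed in edgeR, and 6 of the 73 tested had an unadjusted p under 0.05, against 1024 of all 11677 tested genes. DESeq2 called 1 of them, the phosphatase gene Ptpn6 (named after its value was seen), which was higher in treated Optn-/- livers.

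**Figure D4:**
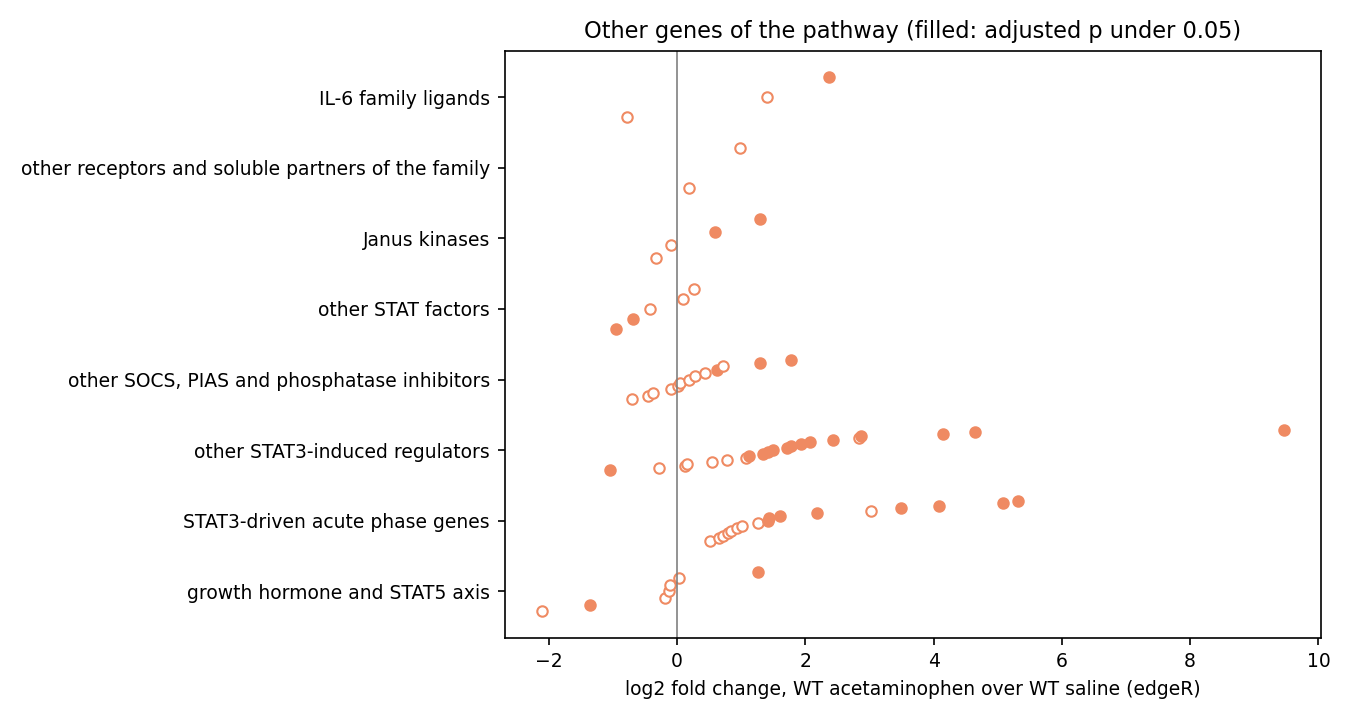
Log2 fold changes (edgeR, treated wild type over saline wild type) of the tested genes in 8 lists of other pathway genes, 1 point per gene, with points of a list offset vertically only to separate them (filled, adjusted p under 0.05; Timp1, at 0 in both controls, is left out). Filled points lie mostly to the right of 0 among STAT3-induced regulators (13 of 21 rose) and acute phase genes (9 of 18 rose). The 9 include Timp1, which is not drawn. Fos and Batf among the 13, and Il1rn and Timp1 among the 9, passed the filter only through treated livers.

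Likeness of pattern was measured as Pearson's correlation of log2(CPM + 0.5) over the 6 libraries, which fall into 4 treated and 2 control livers, so that any gene with a similar treatment difference scores high. For Stat3 the 3 most similar tested genes were Zbtb16 (r = 0.9971), Evi2a (0.9959) and Fgb (0.9957), and 1.88% of tested genes reached 0.95. For Socs3 they were Clca3a1 (0.9955), Yars (0.9954) and Csrp1 (0.9949), and 2.43% reached 0.95. For Il6st, whose values were lowest in Optn-/- replicate 4 and control replicate 6, they were Odr4 (0.9938), Slc35f6 (0.986) and Kdm4c (0.9817), and 0.13% reached 0.95. Odr4 had an FPKM of 1.42 and 3.98 in treated Optn-/- livers, 3.74 and 3.64 in treated wild-type livers, and 3.54 and 1.46 in controls, so that its low values were in the same 2 libraries.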

How the data were processed

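Poly(A) RNA of 6 livers was sequenced as paired ends, per the labels' protocols, which also mention RNA of an adipose type although each tissue label says liver. The authors deposited 1 whole-number count per gene and library. The same deposited table gives FPKM, scaled to total counts, in which a count of 0 is listed at 0.0001. The submitters' processing notes name Bowtie 0.12.2 and mm8, but the table's coordinates equal GENCODE M21 (GRCm38) for 51991 of 55144 matched genes (94.3%), so GRCm38 is used. Counting tool and strand setting: not given in the sources used here.

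Members and lists were chosen with earlier results of these data known. All genes whose FPKM averaged 0.5 or more (11677 of 55385) were tested with edgeR 4.0.16 (quasi-likelihood, TMM scaling, R 4.3.3), with all 6 libraries in 1 model of 3 group means and Benjamini-Hochberg adjustment over all tested genes, at a threshold of 0.05. The filter took all 6 libraries together, so a gene low in the controls could enter only by being high in treated livers. The 95% intervals use the fit's degrees of freedom per gene. Named pathway genes are at most 4 per list and comparison, those with the smallest p among genes past the threshold, plus the gene with the highest mean FPKM. DESeq2 1.42.0, limma 3.58.1, other scalings and filters, and each library left out in turn were alternatives. Columns were tied to samples through the sample titles. Some results of the pathway lists are not reported here.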

Additional observations from a re-analysis of the deposited data

How the results depend on the processing

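No paired analysis was possible because no 2 groups compared share 2 or more replicate numbers. Osmr and Pim1 passed against saline in both treated groups under every alternative that could be run, and Socs3 did in wild type; no member passed between Optn-/- and wild type under any of 16. Members called in wild type against saline numbered 6, or 3 to 5 without 1 library, and in Optn-/- against saline 5, or 3 to 6 without 1 library and 3 at a mean FPKM of at least 5, where 6 were tested. All genes called in wild type against saline numbered 1667, or 494 to 1263 without 1 library, 3107 with DESeq2, 812 when the library set was added to the model and 819 at a mean FPKM of at least 5. For Optn-/- against saline they were 2366, or 750 to 2201, 3620, 960 and 1035 in the same order. Between Optn-/- and wild type they were 12, or 1 to 28 without 1 library, 291 with DESeq2, 30 with the 4 libraries alone, 27 and 28 with limma on log2(FPKM + 0.5) and log2(FPKM + 1), 3 with the set added and 37 without a filter. A stricter filter tests fewer genes and leaving out a library tests fewer samples; other causes were not tested.

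Of 465 combinations of a member's fold change with an alternative, 23 changed sign, none past the threshold. With the library set in the model, the Optn-/- minus wild-type log2 differences became 0.26 (Il6st), -0.53 (Osmr), 0.07 (Lifr), -0.44 (Stat3), -1.14 (Socs3), 1.92 (Socs2) and 0.55 (Pim1), and Socs2 in wild type against saline became -0.38. Socs2 was 0.01 and 0.03 between the treated groups with limma at pseudocounts of 0.5 and 0.1. Without 1 library, differences between the treated groups ran from -0.61 to 0.02 (Il6st), -0.01 to 0.49 (Osmr), -0.36 to 0.03 (Lifr), -0.10 to 0.12 (Stat3), -0.62 to 0.66 (Socs2) and -0.59 to 0.33 (Lepr). Against saline, Socs2 ran from -0.47 to 1.66 in wild type and from -0.52 to 1.54 in Optn-/-, and Il6st from -0.09 to 0.57 in Optn-/-. With 1 library left in a group, its spread is taken to equal that of the others.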
